A study of Mus musculus with 12 samples.

Results

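The genes described here are 8 squamous differentiation genes of the mouse, Sprr1a, Sprr1b, Sprr2f, Ivl, Tgm1, Sfn, Padi1 and Tmprss11a, out of 18193 genes that had a probe set of their own. They were picked by name from lists of squamous genes, and the levels by stage and region given below were known when they were picked, so those levels are a description and carry no test. Every probe set naming 1 of these genes alone was taken, which gave 9, since Ivl has 2. RNA was measured on 12 Affymetrix 3' expression arrays from adult mouse kidney, 2 for each of 6 groups: tissue, progenitor cells and organoids, each from the medulla and from the cortex. Per the labels, progenitors came from cortex and medulla tissue and were grown on a fibroblast feeder layer, and organoids were formed in 3D Matrigel. The labels call the replicates biological and give no strain, exact age, sex or treatment. They do not say whether a progenitor sample was 1 clone or a mixed culture.

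In stratified squamous epithelia such as the epidermis, cells that leave the basal layer build a cornified envelope, an insoluble protein shell under the plasma membrane. Involucrin (Ivl) and the small proline-rich proteins (Sprr genes) are precursors of that shell, and transglutaminase 1 (Tgm1) joins them by covalent crosslinks. Peptidylarginine deiminase 1 (Padi1) turns arginine into citrulline in keratins and filaggrin, stratifin (Sfn, also called 14-3-3 sigma) is an adaptor protein that binds phosphorylated partners in keratinocytes, and Tmprss11a belongs to a family of membrane-anchored serine proteases of squamous and airway surfaces. The renal tubule is a simple epithelium that builds no such shell, whereas the pelvis of the kidney is lined by urothelium. In bulk RNA, fewer cells of a type and less RNA per cell cannot be told apart.

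Among them, 4 genes lie together in the epidermal differentiation complex on chromosome 3, in the order Sprr2f, Sprr1b, Sprr1a, Ivl. Their upstream windows are shown because they share 2 short motifs that the other 4 windows lack. Each is the 250 bases before the annotated start in RefSeq (GRCm38.p6), read 5′ to 3′ on the gene's own strand, and capitals mark matches to TGANTCA, the core bound by AP-1 factors, and to TATAAA, the TATA box. The windows are chr3:92364937-92365186 (plus strand) for Sprr2f, and on the minus strand chr3:92438780-92439029 for Sprr1b, chr3:92485882-92486131 for Sprr1a and chr3:92573736-92573985 for Ivl.
Sprr2f: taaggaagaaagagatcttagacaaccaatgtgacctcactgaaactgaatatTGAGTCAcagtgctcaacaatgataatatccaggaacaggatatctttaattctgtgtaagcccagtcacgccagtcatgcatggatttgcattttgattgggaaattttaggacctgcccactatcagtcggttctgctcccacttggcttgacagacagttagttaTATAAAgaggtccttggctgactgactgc
Sprr1b: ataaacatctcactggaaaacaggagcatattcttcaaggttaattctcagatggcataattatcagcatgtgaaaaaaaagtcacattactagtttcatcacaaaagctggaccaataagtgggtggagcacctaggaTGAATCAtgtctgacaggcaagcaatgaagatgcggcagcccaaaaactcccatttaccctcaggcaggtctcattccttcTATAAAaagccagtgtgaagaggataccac
Sprr1a: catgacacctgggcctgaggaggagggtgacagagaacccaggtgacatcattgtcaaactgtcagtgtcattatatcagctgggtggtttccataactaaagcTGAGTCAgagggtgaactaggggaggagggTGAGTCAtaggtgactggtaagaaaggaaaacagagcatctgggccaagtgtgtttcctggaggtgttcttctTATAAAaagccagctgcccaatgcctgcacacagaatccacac
Ivl: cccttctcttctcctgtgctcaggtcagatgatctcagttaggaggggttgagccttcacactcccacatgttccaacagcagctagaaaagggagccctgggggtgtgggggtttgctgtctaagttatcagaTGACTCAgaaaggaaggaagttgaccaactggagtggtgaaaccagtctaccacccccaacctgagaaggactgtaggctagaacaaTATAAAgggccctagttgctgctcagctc

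All 8 genes had such a window, and 5 motifs were searched on both strands. The AP-1 core was found in 4 of the 8 windows, once in Sprr2f at 197 bases before the start, once in Sprr1b at 111, once in Ivl at 116, and in Sprr1a at both 146 and 116. Across 27025 mouse genes, 6.87% of windows of that length hold it. TATAAA stood in the same 4 windows, 43 bases before the start in Sprr1a, 30 in Sprr1b and 29 in both Sprr2f and Ivl, against 13% of all genes. Among the other genes of the complex with a window, 15 of 58 held the AP-1 core and 23 of 58 held TATAAA. The Grainyhead-like motif AACNGGTT matched in Sfn alone of the 8 windows and in 1.71% of all genes. The TEAD motif GGAATG matched in Sprr1b alone (12.6% of all genes), and the Kruppel-like motif CCNCNCCC matched in Ivl, Tgm1 and Sfn (45.6% of all genes). These motifs overlap one another in no printed window. A match describes letters, not binding.

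Levels are deposited log2 signals of 1 probe set, so they can be set against the same probe set on other arrays but not against another gene. The array medians, which give a sense of what is dim, ran from 5.85 to 6.53. Differences are on a log2 scale after 15.1473 signal units were added to each unlogged signal. That offset shrinks differences of dim probe sets, and folds taken against a dim group depend on its size. Their standard errors (SE) come from the pooled spread of each probe set within the 6 groups.

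Sprr1a, an envelope precursor that is also induced by injury, had the largest regional difference of the 8 in tissue. Its signals were 8.96 and 10.60 in medulla tissue and 5.73 and 6.08 in cortex tissue, a difference of 3.58 ± 0.50 (SE, n = 2 each), or 11.9-fold. In progenitors they were 9.45 and 9.68 (medulla) and 10.26 and 10.31 (cortex). In organoids they were 10.99 and 11.44 (medulla) and 12.08 and 11.98 (cortex). The region order thus ran the other way in the cultures, where both medulla arrays lay below both cortex arrays at each stage. Organoids minus progenitors came to 1.63 ± 0.50 in medulla samples and 1.73 ± 0.50 in cortex samples. Progenitors minus tissue came to -0.22 ± 0.50 in medulla samples, with overlapping arrays, and to 4.07 ± 0.50 in cortex samples, where all arrays lay apart.

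Sprr1b, a nearby gene of the same subfamily, was dim on 10 of the 12 arrays. Medulla organoids read 6.25 and 7.61, against 3.33 and 0.98 in cortex organoids. All other arrays lay between 0.92 and 3.44, well below their array medians, where differences have little meaning. The lower of the 2 medulla organoid signals stood just above its array's median, so the gene passed the brightness filter through that group alone. The medulla minus cortex difference in organoids was 2.74 ± 0.41 (SE, n = 2 each). It lay between 1.39 and 4.42 over the alternatives tried, with the span set by the offset, and between 2.14 and 3.34 with 1 medulla organoid array left out.

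Sprr2f, of the larger Sprr2 subfamily, had the widest range of signals of the 8. Its signals were 3.61 and 2.77 in medulla tissue and 2.63 and 3.69 in cortex tissue, all dim and overlapping. Progenitors read 11.37 and 11.24 (medulla) and 8.25 and 8.49 (cortex), and organoids read 12.63 and 12.35 (medulla) and 10.89 and 10.97 (cortex). Each step was upward in both regions, and in both cultures medulla arrays lay above cortex arrays, by 2.88 ± 0.19 in progenitors and 1.55 ± 0.19 in organoids (SE, n = 2 each). Progenitors minus tissue was 6.70 ± 0.19 in medulla samples and 3.82 ± 0.19 in cortex samples. With tissue this dim the size depends on the offset: averaged over regions it was 5.26, and lay between 3.70 and 6.51 over the alternatives. Organoids minus tissue was 7.11, between 5.45 and 8.38. Sprr2 genes are near-identical copies, and probe sets that named several of them were not used, so how far the Sprr2f probe set reads its relatives is uncertain.

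Involucrin had 2 probe sets, which agreed on the step from tissue and disagreed on the step to organoids. On the brighter one, medulla tissue read 5.50 and 6.05 and cortex tissue 5.26 and 4.41. Progenitors read 7.89 and 7.94 (medulla) and 7.55 and 7.60 (cortex), and organoids read 7.60 and 7.62 (medulla) and 7.10 and 7.63 (cortex). Both cultures therefore stood above tissue, progenitors by 2.05 (1.36 to 2.41 over the alternatives), and the organoid and progenitor arrays overlapped (-0.24 ± 0.18). The dimmer probe set read 0.77 and 1.58 in medulla tissue and 0.44 and 1.46 in cortex tissue. It read 5.51 and 5.23 (medulla) and 2.75 and 3.84 (cortex) in progenitors, and 6.39 and 7.12 (medulla) and 6.56 and 7.87 (cortex) in organoids. Here all 4 organoid arrays were above all 4 progenitor arrays, by 1.92 ± 0.30 (SE, n = 4 each). Whether Ivl was higher in organoids than in progenitors thus depended on the probe set.

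**Figure D1:**
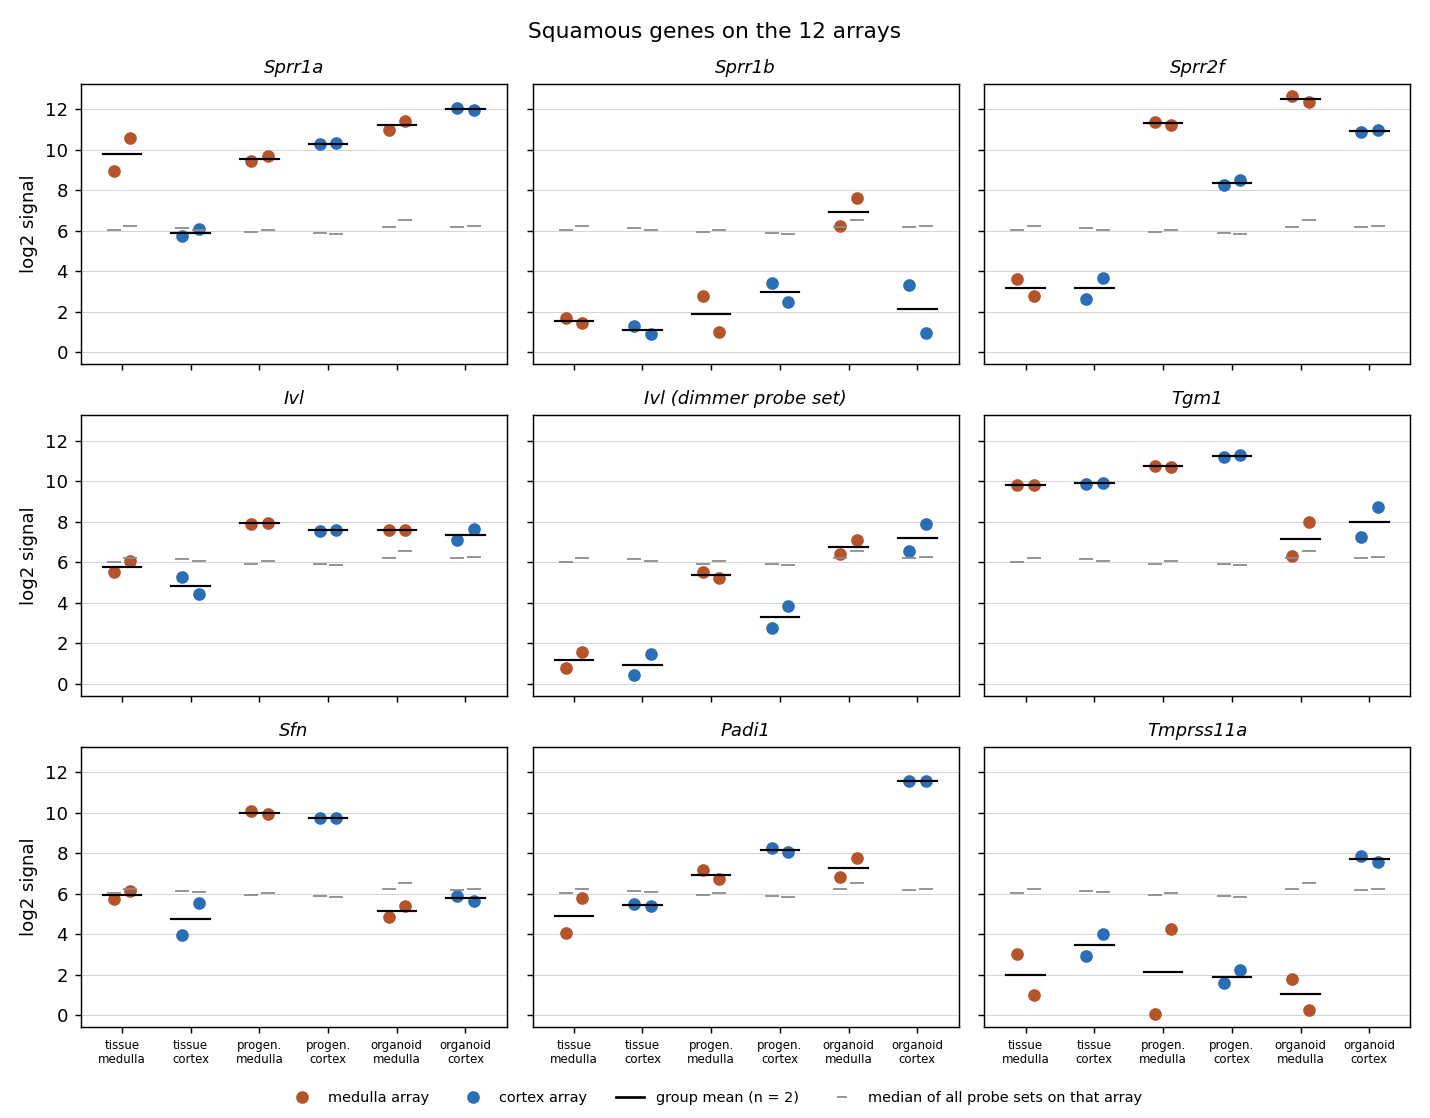
Deposited log2 signal of each of the 8 genes (a panel for each of the 9 probe sets, both Ivl probe sets included) by stage from tissue to organoid, medulla left of cortex. Points are single arrays, black lines group means (n = 2) and grey ticks the median of all probe sets on that array. Sprr2f sits between 2.63 and 3.69 on all tissue arrays and between 8.25 and 12.63 on all culture arrays, Sfn is high in progenitors alone, and Tgm1 is lowest in organoids.

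Tgm1, the crosslinking enzyme, was the one gene above the array median on all 12 arrays. It read 9.81 and 9.83 in medulla tissue and 9.88 and 9.91 in cortex tissue. Progenitors read 10.73 and 10.72 (medulla) and 11.20 and 11.30 (cortex), and organoids read 6.33 and 8.01 (medulla) and 7.27 and 8.75 (cortex). All organoid arrays lay below all progenitor arrays, by 3.28 ± 0.42, and below all tissue arrays, by 2.16 ± 0.42 (SE, n = 4 each). Its organoid replicates differed by over 1 log2 unit in both regions, and the medulla minus cortex difference there, -0.76 ± 0.60, came to between -1.52 and -0.005 over the alternatives. Sprr1a and Sprr2f were at their highest in the stage where Tgm1 was at its lowest.

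Sfn, the adaptor, was high in progenitors alone. Tissue read 5.74 and 6.14 (medulla) and 3.95 and 5.52 (cortex), progenitors 10.07 and 9.94 (medulla) and 9.75 and 9.74 (cortex), and organoids 4.87 and 5.39 (medulla) and 5.90 and 5.64 (cortex). The 4 progenitor arrays lay 4.05 ± 0.23 above tissue, and organoids lay 4.01 ± 0.23 below progenitors (SE, n = 4 each). Organoid and tissue arrays overlapped, with a difference of 0.04 ± 0.23.

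Padi1, the deiminase, separated the 2 kinds of organoid. Medulla organoids read 6.82 and 7.76, against 11.57 and 11.54 in cortex organoids, a difference of -4.14 ± 0.44 (SE, n = 2 each), or 17.6-fold lower in medulla organoids. Over the alternatives it lay between -4.57 and -3.71. Progenitors read 7.19 and 6.71 (medulla) and 8.26 and 8.06 (cortex), and tissue read 4.06 and 5.79 (medulla) and 5.51 and 5.41 (cortex). Progenitors minus tissue over both regions was 1.95 (1.28 to 2.33 over the alternatives). In cortex samples organoids minus progenitors was 3.33 ± 0.44, whereas in medulla samples it was 0.31 ± 0.44 with overlapping arrays.

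Tmprss11a, the surface protease, was above the array median in cortex organoids alone. They read 7.84 and 7.55, and medulla organoids read 1.81 and 0.28. The other 8 arrays lay between 0.05 and 4.25, all dim. Medulla minus cortex in organoids was -3.67 ± 0.38 (SE, n = 2 each), and ranged from -6.04 to -1.95 over the alternatives, again with the offset. Padi1 and Tmprss11a thus shared their highest group, cortex organoids, while Sprr1b and Sprr2f had theirs in medulla organoids.

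Put together by stage, progenitor arrays lay wholly above tissue arrays for 5 of the 8 genes (Sprr2f, Ivl, Tgm1, Sfn and Padi1) and wholly below for 0, with a median difference of 1.94. Of all 12998 genes bright enough to test, 37.3% lay wholly above in that comparison and 35.7% wholly below, and their median difference was 0.03. Organoid arrays lay wholly above progenitor arrays for 1 gene, Sprr1a (23.1% of all tested genes), and wholly below for Tgm1 and Sfn (37.8%), and overlapped for 5. Against tissue, organoids were wholly above for 4 genes, Sprr1a, Sprr2f, Ivl and Padi1 (26.7%), and wholly below for Tgm1 (39.5%). The organoid and progenitor comparisons share arrays, and the genes were picked with these levels known, so nothing is read from those counts. Within medulla samples, progenitor arrays lay wholly above tissue arrays for 5 genes (43% of all tested genes) and below for 0 (41.7%), and within cortex samples for 7 (44.7%) and 1 (42.6%). Organoid arrays lay wholly above progenitor arrays for 3 genes in medulla samples (30.4%) and below for 3 (47%), and in cortex samples for 4 (34%) and 2 (51.2%). Organoid arrays lay wholly above tissue arrays for 5 genes in medulla samples (32.3%) and below for 2 (47.4%), and in cortex samples for 6 (38.2%) and 1 (50.1%). By region, medulla arrays lay wholly above cortex arrays for 4 of 8 genes in tissue (23.9% of tested genes) and wholly below for 1 (21.1%). The 4 were Sprr1a, Sprr1b, Ivl and Sfn, and the 1 was Tgm1, at -0.075. Sprr1b, Ivl and Sfn were below the array median on all tissue arrays, where differences have little meaning. In progenitors the counts were 3 above (22.3%) and 3 below (20.5%), and in organoids 2 above (24.2%) and 4 below (26%). All 8 passed the brightness filter, but Sprr1b, Tmprss11a and Sfn each passed through a single stage, so the filter admitted them by the group in which they were high. Sprr2f, Ivl and Padi1 passed through progenitors and organoids but not through tissue, so the same limit holds for their differences from tissue.

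**Figure D2:**
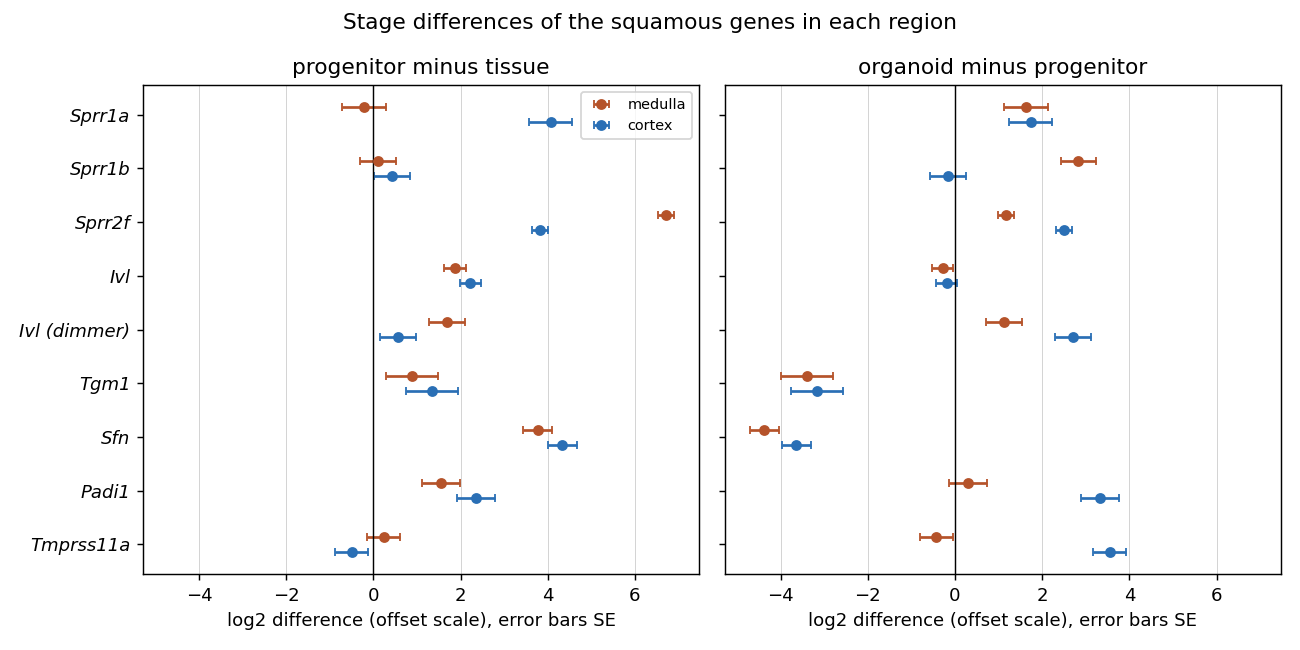
Log2 difference of each gene between stages, progenitor minus tissue and organoid minus progenitor, with medulla and cortex samples drawn apart and bars showing the SE. Sprr2f stands at 6.70 (medulla) and 3.82 (cortex) in progenitors minus tissue, and Tgm1 and Sfn lie below 0 in organoids minus progenitors in both regions.

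**Figure D3:**
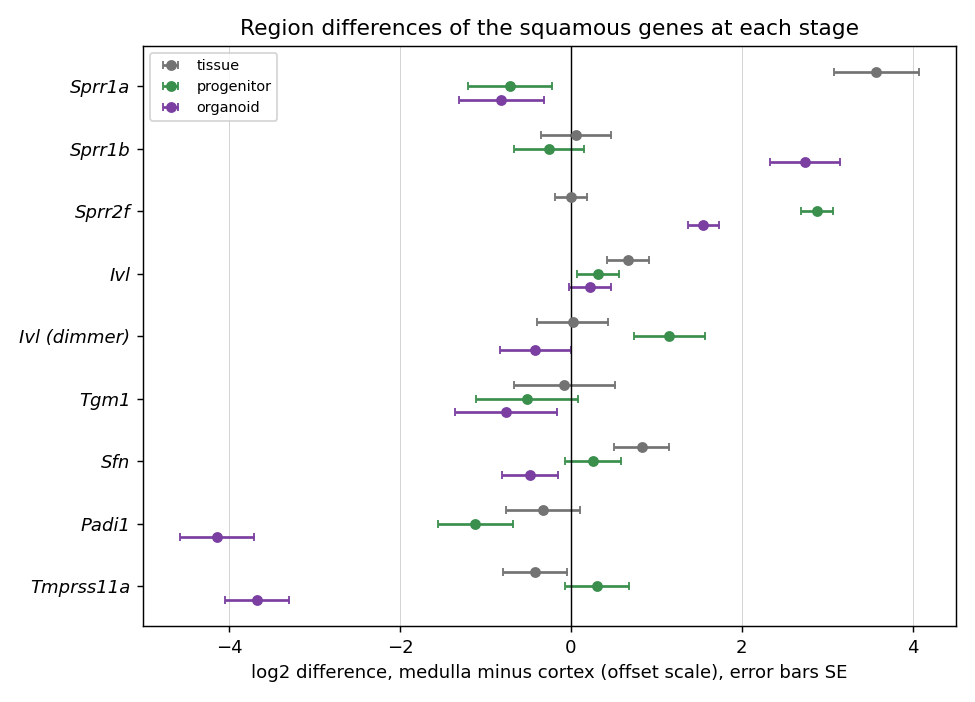
Medulla minus cortex log2 difference of each gene in tissue, progenitors and organoids, with the SE as bars. Padi1 and Tmprss11a stand at -4.14 and -3.67 in organoids, and Sprr1a at 3.58 in tissue and at -0.71 and -0.81 in progenitors and organoids.

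To place these genes among others of the same programme, a list of 177 further squamous genes in 7 groups was tested with limma, with p-values adjusted over all 12998 genes. The list was chosen with earlier results of these data known, so its shares against all genes are a description and not independent support. The arrays held 151 of its genes and 93 were bright enough to test. Between progenitors and tissue 50 of the 93 rose (53.8%) and 23 fell (24.7%), where 36.9% of all tested genes rose and 35.8% fell (72.7% in either direction). The list's median difference was 0.72 against 0.03 for all genes. Between organoids and progenitors 28 rose (30.1%) and 43 fell (46.2%), near the 28% and 44.3% of all tested genes (72.3% together), with medians of -0.43 and -0.29. Between organoids and tissue 44 rose (47.3%) and 35 fell (37.6%), against 33.1% and 46.5% of all tested genes (79.5% together). The counts of single groups given below stand against these same shares of all tested genes. Some calls concern genes that the brightness filter admitted only through the side on which they were high: 12 of the 50 rises and 4 of the 23 falls in progenitors against tissue, 6 of 28 and 13 of 43 in organoids against progenitors, and 6 of 44 and 7 of 35 in organoids against tissue. Of the genes named below, Pkp1, Krt4, Krt6a, Krt17, Lce1a1, Lce1b, Lce1f, Lce1h, Sprr2d and Cers3 passed the filter through progenitors alone. Krt6b, Stfa3, Tmprss11g, Tmprss13 and Lipk passed it through organoids alone. Kprp, Tgm3, Krt5 and Krt15 passed it through tissue alone. Among others, Pkp1, Padi4, Prss22, Tmprss4, Serpinb5, Tmprss11e, Fosl1 and Nipal4 lay below the array median on every tissue array. The sizes of their differences from tissue therefore depend on the offset.

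**Figure D4:**
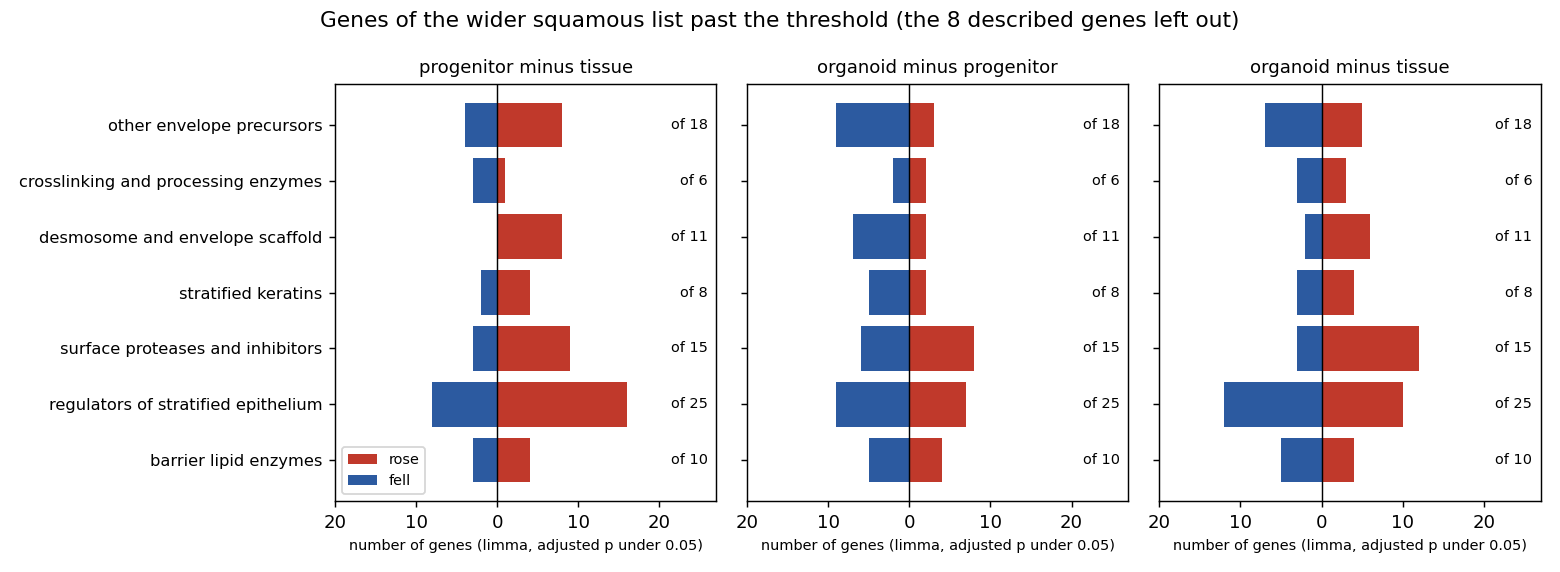
Number of genes that rose (right of 0) or fell (left of 0) in each group of the wider list, by stage comparison, with the number tested at the right and the 8 described genes left out. Desmosome and scaffold genes hold 8 rises and 0 falls in progenitors against tissue, and 2 rises and 7 falls in organoids against progenitors.

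Most genes of the desmosome and envelope scaffold rose in progenitors against tissue. In the main fit most fell in organoids against progenitors, but some of those falls depended on the probe set rule or on single arrays. In progenitors against tissue 8 of 11 rose and 0 fell, led by the desmosomal plaque protein Pkp1 (3.68 ± 0.34, limma adjusted p = 9.6e-07) and periplakin, Ppl (3.01 ± 0.14, adjusted p = 1.45e-09). The desmosomal cadherin Dsc2 rose by 2.90 ± 0.15 (limma adjusted p = 4.52e-09) and Pkp3 by 1.94 ± 0.15 (adjusted p = 1.76e-07). In organoids against progenitors 7 fell and 2 rose, with Pkp1 at -2.42 ± 0.34 (limma adjusted p = 4.46e-05), Pkp3 at -1.93 ± 0.15 (adjusted p = 2.64e-07), envoplakin, Evpl, at -1.39 ± 0.31 (adjusted p = 0.00151) and Ppl at -1.31 ± 0.14 (adjusted p = 3.58e-06). Of those 7 falls, Pkp2 and Dsg2 were lost and turned in sign with the mean of probe sets (limma adjusted p = 0.664 and 0.131). The fall of Dsc2 was lost without replicate 1 of either progenitor group (adjusted p up to 0.089). Of the stratified keratins 4 of 8 rose and 2 fell in progenitors against tissue, and 2 rose and 5 fell in organoids against progenitors. Krt6a, a keratin of activated keratinocytes, did both: it rose by 3.10 ± 0.20 in progenitors against tissue (limma adjusted p = 4.05e-08) and fell by 3.97 ± 0.20 in organoids against progenitors (adjusted p = 8.93e-09). Krt17 (1.94 ± 0.26, limma adjusted p = 2.44e-05) and Krt4 (1.86 ± 0.22, adjusted p = 9.51e-06) rose and Krt15 fell (-1.52 ± 0.28, adjusted p = 0.000404) in progenitors against tissue. Krt6b (2.08 ± 0.39, limma adjusted p = 0.000387) and Krt10 (1.57 ± 0.16, adjusted p = 3.09e-06) rose and Krt4 fell (-1.16 ± 0.22, adjusted p = 0.000504) in organoids against progenitors.

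Other envelope precursors were split. In progenitors against tissue 8 of 18 rose (44.4%) and 4 fell (22.2%), where 36.9% of all tested genes rose and 35.8% fell. In organoids against progenitors 3 rose (16.7%) and 9 fell (50%), where 28% of all tested genes rose and 44.3% fell. The late cornified envelope gene Lce1h rose in progenitors (3.01 ± 0.31, limma adjusted p = 2.43e-06) and fell in organoids against progenitors (-3.55 ± 0.31, adjusted p = 6.92e-07). Lce1f rose in progenitors as well (2.01 ± 0.27, limma adjusted p = 2.35e-05), and trichohyalin, Tchh, fell there (-2.11 ± 0.21, adjusted p = 1.76e-06). In organoids against progenitors Lce1b (-2.36 ± 0.24, limma adjusted p = 2.48e-06), Lce1a1 (-2.20 ± 0.22, adjusted p = 2.62e-06) and Kprp (-1.999 ± 0.30, adjusted p = 7.64e-05) fell. The probe sets of Lce1h, Lce1a1 and Lce1i are of a type that can cross-hybridize, so how far each reads its relatives is uncertain. Those of Krt4, Sbsn, Tgm2 and Casp14 are of the same type. Loricrin, the main envelope protein of epidermis, passed in neither (limma adjusted p = 0.991 and 0.735). Filaggrin was too dim to test. Sprr2k, a relative of Sprr2f, rose in progenitors against tissue (1.98 ± 0.24, limma adjusted p = 9.57e-06). For organoids against progenitors it gave 0.49 ± 0.24 (adjusted p = 0.0805). Sprr2d rose by 0.92 ± 0.31 in progenitors against tissue (limma adjusted p = 0.019), a call lost without any of 4 arrays (tissue cortex replicate 2, tissue medulla replicate 2, or replicate 1 of either progenitor group; adjusted p up to 0.0943).

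Enzymes that crosslink and process the envelope did not move as a block. In progenitors against tissue 1 of 6 rose and 3 fell, and in organoids against progenitors 2 rose and 2 fell. Some relatives of Tgm1 and Padi1 had their direction and others had the opposite one. Tgm2, the tissue transglutaminase, fell by 0.87 ± 0.10 in progenitors against tissue (limma adjusted p = 6.81e-06) and rose by 1.86 ± 0.10 in organoids against progenitors (adjusted p = 1.23e-08), the reverse of Tgm1. Tgm3 fell by 1.40 ± 0.44 in organoids against progenitors (limma adjusted p = 0.0125), which did not pass without organoid cortex replicate 1 (adjusted p = 0.0635). Padi2 fell by 1.18 ± 0.16 in progenitors against tissue (limma adjusted p = 3.12e-05) and rose by 3.00 ± 0.16 in organoids against progenitors (adjusted p = 1.22e-08). Padi4 rose by 2.49 ± 0.23 in progenitors against tissue (limma adjusted p = 8.9e-07). Blmh, the bleomycin hydrolase, fell by 0.58 ± 0.10 in progenitors against tissue (limma adjusted p = 0.00029), a call that was lost and turned in sign with the mean of its probe sets (adjusted p = 0.508). Caspase 14, a protease of cornifying cells, fell by 3.04 ± 0.26 in organoids against progenitors (limma adjusted p = 5.56e-07).

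Surface proteases and their inhibitors were the group with most rises in organoids: 12 of 15 rose and 3 fell against tissue. Tmprss4 (6.35 ± 0.24, limma adjusted p = 3.14e-10) and the protease inhibitor Slpi (5.38 ± 0.15, adjusted p = 3.45e-11) led, followed by Prss22 (4.65 ± 0.29, limma adjusted p = 2.23e-08) and Tmprss11e (3.89 ± 0.25, adjusted p = 2.99e-08). The rise of Spint1 and the falls of Spint2 and Klk8 in organoids against tissue were each lost under some alternatives. In progenitors against tissue 9 rose and 3 fell, led by Prss22 at 7.63 ± 0.29 (limma adjusted p = 3.18e-10), a fitted value against a dim tissue group. Serpinb5 (4.66 ± 0.26, limma adjusted p = 8.27e-09) and Tmprss4 (4.396 ± 0.24, adjusted p = 7.5e-09) rose there, and Prss8 fell (-3.00 ± 0.11, adjusted p = 2.03e-10). The fall of Tmprss2 in progenitors against tissue was lost with the mean of its probe sets (limma adjusted p = 0.203). In organoids against progenitors 8 rose and 6 fell. Prss22 fell (-2.98 ± 0.29, limma adjusted p = 1.99e-06), and Tmprss13 (2.62 ± 0.36, adjusted p = 3.19e-05) and Slpi (2.49 ± 0.15, adjusted p = 3.85e-08) rose. Both Tmprss11 relatives bright enough to test rose in organoids against progenitors, Tmprss11g by 3.33 ± 0.31 (limma adjusted p = 1.1e-06) and Tmprss11e by 2.05 ± 0.25 (adjusted p = 1.39e-05). Tmprss11g passed the brightness filter through organoids alone, so the filter admitted it by the stage in which it was high, and its probe set is of a type that can cross-hybridize. Tmprss11d and Tmprss11f were too dim to test, as were Padi3, Padi6, Tgm5, Tgm6, Sprr2h, Sprr2i and Sprr3.

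Among transcriptional regulators 16 of 25 rose and 8 fell in progenitors against tissue. The largest change was in Maf, a leucine zipper factor, which fell by 5.87 ± 0.33 (limma adjusted p = 8.99e-09). Vdr, the vitamin D receptor, fell by 5.02 ± 0.19 (limma adjusted p = 3.07e-10). The AP-1 subunit gene Fosl1 rose by 4.36 ± 0.26 (limma adjusted p = 1.54e-08) and Klf5 by 4.24 ± 0.16 (adjusted p = 2.53e-10). In organoids against progenitors 7 rose and 9 fell, and Junb, another AP-1 subunit, fell by 4.37 ± 0.16 (limma adjusted p = 9.81e-10). Cebpa rose by 3.50 ± 0.18 (limma adjusted p = 1.01e-08), Ovol2 fell by 2.61 ± 0.27 (adjusted p = 3.33e-06) and Vdr rose by 2.07 ± 0.19 (adjusted p = 1.18e-06). Of the barrier lipid enzymes 4 of 10 rose (40%) and 3 fell (30%) in progenitors against tissue, near the 36.9% and 35.8% of all tested genes. Nipal4 rose by 4.54 ± 0.21 (limma adjusted p = 1.75e-09). Dgat2 (-2.82 ± 0.20, limma adjusted p = 9e-08) and the sphingomyelinase Smpd1 (-2.03 ± 0.10, adjusted p = 3.15e-09) fell, and the glucosylceramide synthase Ugcg rose (2.34 ± 0.15, adjusted p = 2.39e-08). In organoids against progenitors 4 rose and 5 fell, with the lipase Lipk up by 4.90 ± 0.23 (limma adjusted p = 3.98e-09), a gene that passed the brightness filter through organoids alone. Sult2b1 (-2.83 ± 0.28, limma adjusted p = 2.45e-06) and the lipoxygenase gene Aloxe3 (-1.87 ± 0.30, adjusted p = 0.000143) fell. Ugcg rose by 1.18 ± 0.15 (limma adjusted p = 1.49e-05), a call lost with the mean of its probe sets (adjusted p = 0.513).

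Most groups of the list held both rises and falls in organoids against tissue. Of the precursors, Sprr2k (2.47 ± 0.24, limma adjusted p = 1.07e-06) and Stfa3 (2.16 ± 0.46, adjusted p = 0.000897) rose, and Lce1i (-2.66 ± 0.31, adjusted p = 6.25e-06) and Kprp (-2.20 ± 0.30, adjusted p = 2.6e-05) fell. Of the enzymes, Padi4 (2.78 ± 0.23, limma adjusted p = 2.79e-07) and Padi2 (1.83 ± 0.16, adjusted p = 4.95e-07) rose and Casp14 fell (-3.52 ± 0.26, adjusted p = 9.12e-08). Tgm3 fell as well (-1.24 ± 0.44, limma adjusted p = 0.0204), a call lost without tissue medulla replicate 1 or replicate 1 of either organoid group (adjusted p up to 0.0984). Of the scaffold genes, Dsc2 (2.44 ± 0.15, limma adjusted p = 1.87e-08), desmoplakin, Dsp (2.16 ± 0.15, adjusted p = 4.79e-08), and Ppl (1.70 ± 0.14, adjusted p = 2.36e-07) rose and Evpl fell (-1.98 ± 0.31, adjusted p = 8e-05). Of the keratins, Krt6b (2.47 ± 0.39, limma adjusted p = 8.05e-05) and Krt17 (1.21 ± 0.26, adjusted p = 0.000993) rose, and the basal keratins Krt5 (-1.43 ± 0.29, adjusted p = 0.000668) and Krt15 (-1.36 ± 0.28, adjusted p = 0.000799) fell. Of the regulators, Fosl1 (4.77 ± 0.26, limma adjusted p = 6.24e-09) and Tfap2a (4.71 ± 0.11, adjusted p = 8.66e-12) rose, and Maf (-5.75 ± 0.33, adjusted p = 9.76e-09) and Hopx (-4.64 ± 0.26, adjusted p = 7.35e-09) fell. Of the lipid genes, Lipk (4.65 ± 0.23, limma adjusted p = 2.27e-09), Nipal4 (4.56 ± 0.21, adjusted p = 1.58e-09) and Ugcg (3.52 ± 0.15, adjusted p = 6.05e-10) rose and Smpd1 fell (-2.55 ± 0.10, adjusted p = 4.31e-10).

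Region calls were few outside organoids. In tissue 3 of the 93 genes rose in medulla (0.3% of all tested genes did) and 0 fell (0.00769%), with 23 at an unadjusted p under 0.05. They were Krt15, a keratin of basal cells that passed the brightness filter through medulla tissue alone (3.31 ± 0.40, limma adjusted p = 0.00464), Klf5 (2.43 ± 0.22, adjusted p = 0.000848) and Ehf (1.21 ± 0.21, adjusted p = 0.0347). A limma fit of the tissue arrays alone called 0 of the list (22 at an unadjusted p under 0.05). Krt15 was also lost without cortex replicate 1 (adjusted p up to 0.119), and Klf5 with the mean of its probe sets (adjusted p up to 0.826). Ehf held in 8 of 14 alternatives: it was lost without either cortex replicate, without medulla replicate 1, with no variance trend and with the mean of its probe sets (adjusted p up to 0.745). Leaving out medulla replicate 2 gave 5 calls in all. In progenitors Klf4, a factor of barrier formation, fell in medulla (-1.01 ± 0.15, limma adjusted p = 0.00963), and 0 rose (0.277% of all tested genes did, and 0.0385% fell), with 9 at an unadjusted p under 0.05. The Klf4 call was lost whichever of the 4 progenitor arrays was left out (adjusted p up to 0.178). In organoids 5 rose in medulla (7.95% of all tested genes did) and 9 fell (10%). The relatives of Padi1 were among the falls, Padi4 at -2.41 ± 0.33 (limma adjusted p = 0.000734) and Padi2 at -2.18 ± 0.23 (adjusted p = 0.000151). Tmprss11e fell as well (-2.05 ± 0.36, limma adjusted p = 0.00299), whereas Tmprss11g gave -0.67 ± 0.43 (adjusted p = 0.325). Sprr2k rose (1.72 ± 0.34, limma adjusted p = 0.00528). Padi2 and Padi4 thus had the direction of Padi1, and Tmprss11e that of Tmprss11a. Sprr2k had the direction of Sprr2f and Sprr1b and the opposite of Sprr1a (-0.81), and Sprr2d gave -0.90 ± 0.44 (limma adjusted p = 0.188). The calls of Padi2, Padi4, Tmprss11e and Sprr2k held with any 1 organoid array left out. In a fit of the organoid arrays alone only Padi2 of these 4 passed, with Padi4 at an adjusted p of 0.0522 and Sprr2k at 0.0818. Tmprss11e missed the threshold there and with an offset of 1 (adjusted p up to 0.0757). Other calls in organoids were Lipk (-2.84 ± 0.32, limma adjusted p = 0.000251) and Klf4 (-1.25 ± 0.15, adjusted p = 0.000329), each lower in medulla under every alternative run. Hopx (-2.67 ± 0.36, limma adjusted p = 0.000791) was lower and Grhl1 (1.64 ± 0.37, adjusted p = 0.0105) higher, with adjusted p up to 0.171 and 0.167 over the alternatives. The calls of Krt5 (1.53 ± 0.41), Maf (1.68 ± 0.47), Stfa3 (2.23 ± 0.65), Cers3 (-1.46 ± 0.44), Sbsn (-0.79 ± 0.25) and Dsc2 (-0.67 ± 0.21) had limma adjusted p of 0.025 to 0.0497 and were each lost under at least 5 alternatives. Stfa3 passed the brightness filter through medulla organoids alone. The list count in organoids varied with the array left out, being 14 with all arrays, 9 without either cortex replicate, 21 without medulla replicate 1 and 30 without medulla replicate 2.

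The complex on chromosome 3, taken here as the genes from S100a1 to S100a10, was set out in gene order, a range chosen after the data were seen. Its 70 annotated protein-coding genes included 48 with a probe set of their own and 30 bright enough to test, 4 of them described above and 26 others. Each gene was followed across groups on its own probe set. Sprr2f had its highest group mean in medulla organoids (12.49, n = 2) and Sprr1a in cortex organoids (12.03). Sprr3, which lies between them, was below the array median on all arrays. The calprotectin genes S100a8 and S100a9, known from myeloid cells and stressed squamous cells, averaged 13.50 and 11.40 in medulla organoids and 13.61 and 12.08 in cortex organoids. In progenitors S100a9 averaged 1.02 (medulla) and 2.33 (cortex). S100a7l2 averaged 9.36 in medulla organoids and 5.37 in cortex organoids, the region order of Sprr1b.

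**Figure D5:**
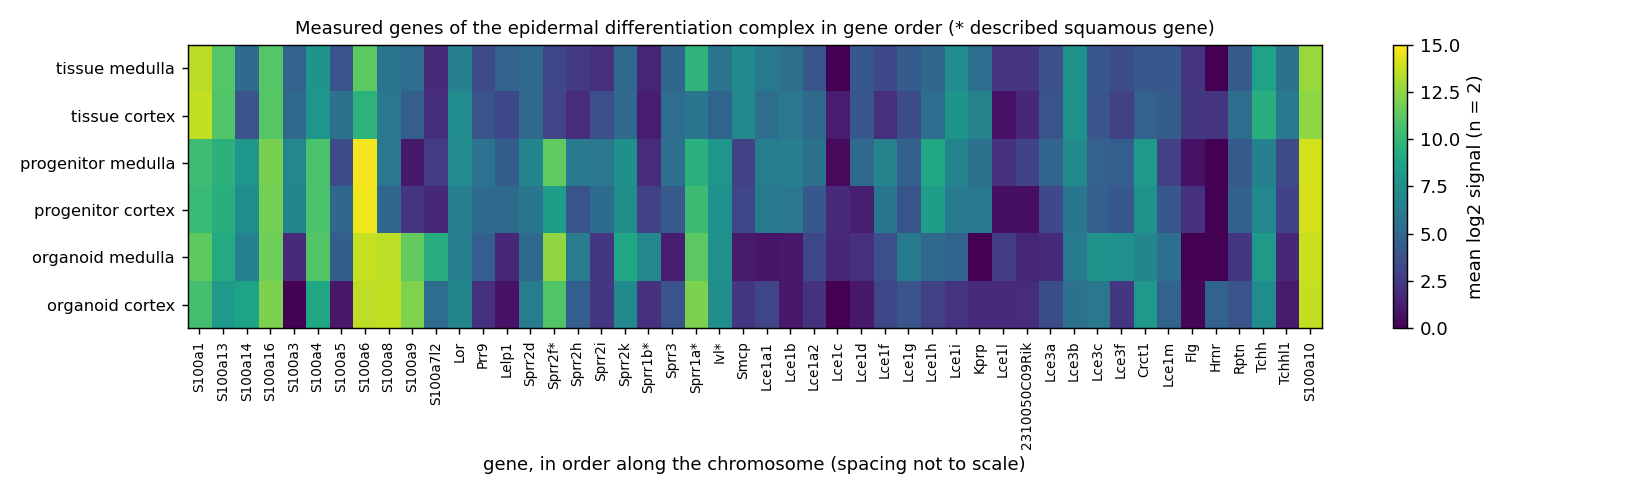
Mean log2 signal of measured genes of the epidermal differentiation complex in gene order, one row per group, with the 4 described genes marked. Colour runs from dim (dark) to bright (light), and gene spacing is not to scale. Colours can be compared down a column but not between genes: Sprr2f is highest in medulla organoids (12.49) and Sprr1a in cortex organoids (12.03).

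Likeness over the 12 arrays was measured by Pearson's r on the offset log2 scale, as a description, since all points share 3 stages. For Sprr1a the closest genes were Esyt3 (0.938), Fxyd3 (0.931) and Purb (0.910). Sprr1b was closest to Ift22 (0.965), Lmbr1 (0.950) and S100a7l2 (0.938), and Sprr2f to Ppat (0.987), Rrp8 (0.982) and Col1a1 (0.981). The brighter Ivl probe set was closest to Asf1b (0.979), Lamb3 (0.976) and Tnnt2 (0.976). Tgm1 was closest to Vapb (0.986), Fancf (0.984) and Sp3 (0.983), and Sfn to Fasn (0.993), Eif4a1 (0.989) and Adam12 (0.989). Padi1 was closest to Acsl3 (0.964), Ppig (0.960) and Pign (0.959), and Tmprss11a to Ttbk2 (0.929), Ppp1r42 (0.926) and Bnipl (0.924). Many genes were nearly as close: the 20th gene still had an r of 0.866 for Sprr1b, 0.965 for Sprr2f and 0.98 for Sfn. Sprr1b and Tmprss11a were each above the array median on only 2 arrays, both of 1 group, so their r rests largely on those. Within the 8, the highest r were 0.88 for Sprr2f with Ivl, 0.80 for Padi1 with Tmprss11a and 0.73 for Sprr1a with Ivl. The lowest was -0.60 for Sprr1b with Tgm1.

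Several measures moved with these results, and their part in them was not tested. Of 6 measured markers on the basal squamous list, 0 were brighter than the median of each array in either organoid group. In both progenitor groups 1 was, Krt6a at 8.47 to 9.62, while Krt5, Krt14, Krt15, Trp63 and Col17a1 were dim. In medulla tissue 3 of the 6 were (Krt5, Krt15 and Trp63), against 0 in cortex tissue. Most urothelial markers ran with Sprr1a in tissue, while Upk1a, Snx31 and Krt20 overlapped between the tissue regions. In medulla tissue 7 of 8 were above the median, with summed signals of 1702 to 2388. In cortex tissue 2 of 8 were above the median, with sums of 411 to 514. In progenitors 5 of 8 urothelial markers were above it, with sums of 7259 to 7773. In organoids 3 of 8 were in medulla samples (sums 4827 to 4939) and 2 of 8 in cortex samples (10350 to 11209). Krt20 made up most of the progenitor sums, and with Upk1a most of the organoid sums. It read 12.67 to 12.77 in progenitors, 11.49 to 12.33 in organoids and 4.85 to 6.16 in tissue. The mean log2 signal of the 8 markers was 7.29 to 7.95 in medulla tissue and 5.13 to 5.41 in cortex tissue. In progenitors that mean was 6.35 to 7.01, and in organoids 5.86 to 6.12. Single urothelial markers differed in their order in organoids. Upk1a was at 10.37 and 10.73 in medulla organoids and 12.53 and 12.38 in cortex organoids. Upk3b was at 5.97 and 6.20 in medulla organoids and 2.32 and 4.30 in cortex organoids, and Psca at 6.57 and 7.91 in medulla organoids and 6.11 and 6.76 in cortex organoids, with overlap. Upk2 and Upk3a lay below the array median on all organoid arrays. Fibroblast markers ran with Sprr1b and Sprr2f in organoids, with summed signals of 7693 to 7999 in medulla organoids and 2035 to 2494 in cortex organoids. In progenitors, which grew on fibroblasts, the sums were 11702 to 13553 (medulla) and 9500 to 9720 (cortex), and in tissue 4300 to 6597 (medulla) and 3009 to 5614 (cortex). Tubule markers were above the median for 8 of 8 genes in both tissues, for 2 of 8 in both progenitor groups and for 3 of 8 in both organoid groups. Leukocyte markers summed to 6196 to 11030 over the tissue arrays, 668 to 807 over the progenitor arrays and 1697 to 2072 over the organoid arrays. The leukocyte gene Ptprc read 5.66 to 6.12 in progenitors and 9.06 to 9.68 in organoids, the direction of S100a8 and S100a9. Csf1r had that direction too (7.82 to 8.12 and 9.41 to 10.02). Laptm5 had the opposite one (5.58 to 6.74 and 4.19 to 4.82). Cd68 and Cd74 overlapped between these stages, and Tyrobp, Itgam and Cd3e were below the array median in both.

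Array quality also differed by stage. The spiked poly-A controls had medians of 7.96 to 8.83 on tissue arrays, 7.03 to 7.37 on progenitor arrays and 1.21 to 1.88 on organoid arrays, so sample handling and stage cannot be told apart. The Gapdh 3' minus 5' difference, a sign of RNA integrity and labelling, was -0.23 to 0.18, -0.41 to -0.30 and 0.87 to 1.67 for the same stages. Within organoids it was 1.15 and 0.87 in medulla samples and 1.53 and 1.67 in cortex samples. For actin the 3' minus 5' difference put the stages in another order, at 0.94 to 1.63 in tissue, 0.16 to 0.19 in progenitors and 0 to 0.15 in organoids. Replicates correlated at r = 0.945 in medulla organoids and at 0.979 to 0.990 elsewhere.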

How the data were processed

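Gene expression was measured on 12 Affymetrix 3' arrays, 2 per group in 6 groups. Each probe set has 1 value per array, a log2 signal as deposited, which came from MAS5 per the submitters' processing notes (version not given). The mean unlogged signal after trimming 2% at each end was 500 on every array, read from the values themselves. Signals were unlogged, 15.1473 units were added (the 25th percentile) and log2 was taken. The brightest probe set with 1 symbol stood for each of 18193 genes, and 12998 genes whose 2 arrays both exceeded their medians in some group were tested with limma 3.58.1 in R 4.3.3: 6 group means, 6 residual degrees of freedom, empirical Bayes with a mean-variance trend, two-sided, Benjamini-Hochberg adjustment, threshold 0.05. On simulated data for 12998 genes, 100 changed at each size, it recovered 65% of 1-unit and 94% of 2-unit log2 changes for progenitor against tissue (6 false calls), and 16% of 0.5-unit and 57% of 1-unit changes for organoid against tissue (4 false calls). In the deposited data 72.7% (progenitor against tissue) and 79.5% (organoid against tissue) of tested genes were called. Recovery at such shares was not tested, nor was recovery for the region comparisons. The 8 genes got no test, and the wider list did. Members and lists were chosen with earlier results of these data known. Named from the list are, per group and comparison, up to 4 called genes with the largest differences. Relatives in the Sprr, Tgm, Padi and Tmprss11 families and some genes whose calls were lost under alternatives were added. For likeness the 3 genes with the highest r were named. Genes of the complex were named after their values were seen. The labels call replicates biological, and nothing says they came from separate animals, so p-values measure the spread between these arrays. Listed genes without a probe set of their own were not analysed here. The number of arrays limits the precision. Alternatives were other scalings, offsets, filters and probe set rules, the compared groups alone, no trend, a replicate block and leaving out each array.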

Additional observations from a re-analysis of the deposited data

Results flagged for a closer look

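In 2 genes the direction of a difference turned between stages or regions with every array on its side. The turn itself was not tested, since the genes were picked on these values. Sprr1a was higher in medulla than in cortex tissue (3.58 on the log2 scale) and lower in medulla than in cortex samples in progenitors (-0.71) and organoids (-0.81). Most urothelial markers ran with Sprr1a in tissue and some overlapped between regions, as given above. For Sfn the medulla minus cortex difference was 0.83 in tissue, 0.26 in progenitors and -0.48 in organoids, and the organoid minus tissue difference was -0.61 in medulla and 0.69 in cortex samples. The Sfn signals of tissue and organoids lay below their array medians, where the SE of 0.33 is a large part of each value.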

How the results depend on the processing

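Counts over the wider list in the 3 stage comparisons stayed within 1.5 times of the main counts under every alternative run. With 1 array left out they ranged from 69 to 76 for progenitors against tissue, from 67 to 75 for organoids against progenitors and from 77 to 82 for organoids against tissue. Region counts moved more. In tissue, where 3 genes were called, the mean of all probe sets of a gene gave 1 call and a limma fit of the compared groups alone gave 0 (22 at an unadjusted p under 0.05). Leaving out 1 array gave 1 to 5, with 1 without cortex replicate 1 and 5 without medulla replicate 2. In progenitors, with 1 call, the offset at the median signal gave 3, the compared groups alone gave 4, and leaving out any 1 of the 4 progenitor arrays gave 0 in limma (5 to 8 at an unadjusted p under 0.05). In organoids, with 14 calls, the compared groups alone gave 4, and leaving out 1 array gave 9 to 30, with 30 without medulla replicate 2. The lone array is then assumed to vary like the other groups. Over 15 pairs of groups the deviations of arrays with equal replicate numbers correlated at -0.14 to 0.06. With 2 arrays a group, and numbers that need not match between groups, this cannot show whether samples were paired. With the replicate block the counts were 73, 71 and 78 for the stage comparisons and 4, 1 and 13 for tissue, progenitor and organoid regions. For the 8 genes, 469 of 528 recomputed differences moved by less than the spread between replicates and 54 by more without turning. In all, 15 changed sign, 10 of them within that spread and 5 beyond it. Those within it included Sfn in organoids against tissue, at -0.21 to 0.29, and Tmprss11a in progenitors against tissue, at -0.53 to 0.14. With the mean of its probe sets, Ivl was 1.02 in organoids against progenitors and -0.10 for medulla minus cortex in organoids. With 1 array left out, medulla minus cortex in tissue ran from -0.20 (without tissue cortex replicate 1) to 0.20 for Sprr2f and from -0.90 to 0.25 (without tissue medulla replicate 1) for Padi1, and in progenitors from -0.23 (without progenitor medulla replicate 2) to 0.85 for Tmprss11a. The cause was not tested. Scaling at the 75th percentile shifted the median of all genes in organoids against tissue to -0.51, against -0.28. Low signal over background limits Sprr1b, Tmprss11a and the tissue levels of Sprr2f.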
